A study of Mus musculus with 4 samples.

Results

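The IL-1 family and inflammasome genes described here are Il1a, Il1b, Il18, Il1f9, Il1rn, Il1r2, Il1rap, Nlrp3, Pycard and Casp1, chosen by name, and all 10 were found among the 53465 genes of the count file. RNA-seq was performed on MDSCs, immature myeloid cells with suppressive activity that expand in hosts with a tumor. The MDSCs were taken from the spleens of BALB/c mice carrying 4T1 tumors, a transplantable mammary carcinoma of that strain, and were selected with magnetic beads against Gr-1 (an epitope of Ly-6G and Ly-6C). The mice were male and 6 weeks old when injected. The labels place sacrifice on day 21, and the methods place the sort 2 weeks after the tumor cells were injected. For 6 h the sorted cells stayed in plain medium (control, 2 libraries) or received EGCG, a green tea catechin, at 5 μg/mL (EGCG, 2 libraries). All libraries thus came from tumor-bearing animals, and neither the labels nor the methods say whether replicates came from separate mice or separate wells, so that p-values measure only the spread between these libraries.

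IL-1 alpha and IL-1 beta are inflammatory cytokines that act on the IL-1 receptor and its accessory chain IL-1RAP, and the receptor antagonist IL-1Ra and the decoy receptor IL-1R2 limit their action. IL-1 beta and IL-18 are made as inactive precursors that caspase-1 cleaves after NLRP3 and the adaptor ASC (the product of Pycard) have assembled into an inflammasome. Neutrophils and monocytes are major sources of these proteins, and IL-1 beta is known to support the accumulation of MDSCs in tumor-bearing mice. The present comparison asks at the RNA level whether EGCG moved this system in MDSCs within 6 h. The mRNA counts hold no information on cleavage or secretion.

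Between 17767318 and 18390385 reads were counted on genes per library, and 14682 genes had enough counts to be tested, the 10 IL-1 family and inflammasome genes among them. Levels below are in CPM, that is, counts divided by the library size that TMM scaling gives and brought to a common total. Among the lists of cell type markers, that of neutrophils had the highest summed CPM. Such sums run over genes of unlike number and length and do not measure shares of cells. The 11 neutrophil markers summed to 62120 and 73630 CPM in control replicates 1 and 2. In EGCG replicates 1 and 2 they summed to 82600 and 73390 CPM. S100a8 and S100a9 made up most of those sums. Of the 11 markers, 3 had log2 fold changes under 0 and 8 above, with a median of 0.13. By edgeR, 1 (S100a8) was higher at an unadjusted p under 0.05, against 5.22% of all tested genes, and 0 were called. The 7 monocyte markers summed to 1858 and 1607 CPM in control against 1422 and 1535 CPM with EGCG. Much of that gap came from Fn1, the fibronectin gene, at 490.3 and 303.6 CPM in control and 217.8 and 263 CPM with EGCG. The log2 fold change of Fn1 was -0.72, or -0.33 without control replicate 1 and -1.03 without control replicate 2. Dropping EGCG replicate 1 left -0.59, and dropping EGCG replicate 2 left -0.86. F13a1, which encodes a chain of coagulation factor XIII, had 96.88 and 82.09 CPM in control against 70.76 and 72.22 CPM with EGCG. Of the 7, 6 had log2 fold changes under 0, against 49.4% of all tested genes. Of these, 3 (Fn1, F13a1 and Csf1r) were separate and lower with EGCG, as were 21.2% of all tested genes. By edgeR, 2 were lower at an unadjusted p under 0.05 and 0 were called lower, against 7.02% and 0.136% of all tested genes. The 4 endothelial markers (Cdh5, Pecam1, Kdr and Tek) summed to 113.9 and 125.8 CPM in control against 93.93 and 98.59 CPM with EGCG, mostly from Pecam1, and the median of their log2 fold changes was -0.81, with 0 of 4 called and 4 of 4 lower at an unadjusted p under 0.05, against 0.136% and 7.02% of all tested genes. All 4 eosinophil markers had lower CPM in both EGCG libraries (sums of 1061 and 915.4 CPM against 892.4 and 753.4 CPM), as did 21.2% of all tested genes, and 8 of 9 splenic macrophage markers had log2 fold changes under 0, against 49.4% of all tested genes (sums of 995.1 and 1051 CPM against 996.8 and 1061 CPM), 4 of them at an unadjusted p under 0.05 and again with 0 called. The largest part of those sums was Slc40a1, the ferroportin gene and the 1 marker above 0 (also at an unadjusted p under 0.05), with 561.9 and 625 CPM in control and 668.4 and 696.1 CPM with EGCG. All 4 platelet and megakaryocyte markers had log2 fold changes under 0, against 49.4% of all tested genes. Of these, 1 (Itga2b) was lower at an unadjusted p under 0.05 by edgeR, and 0 were called. Among erythroid markers, 5 of 6 had log2 fold changes above 0, as had 4 of 6 B cell markers. The same held for 3 of 5 tested T and NK cell markers, 3 of 6 basophil markers and 2 of 6 dendritic cell markers. At an unadjusted p under 0.05 by edgeR, 1 erythroid, 1 B cell and 1 basophil marker were higher and 1 dendritic cell marker was lower. In these lists too, 0 were called. No marker of these lists was at 0 in all libraries, and the part of such cells in the results below was not tested. In bulk RNA, fewer cells of a type and less RNA per cell cannot be told apart. Control replicate 1 stood apart from the EGCG libraries (mean chi-square of 14.4 and 11.2 per gene), whereas control replicate 2 was as close to them (6.9 and 6.14) as to control replicate 1 (6.25).

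No gene of the set passed the test between EGCG and control. With edgeR's quasi-likelihood fit and p adjusted over the whole table, 0 of the 10 genes were called lower (0.136% of all tested genes) and 0 were called higher (0.0136%) at an adjusted p under 0.05. Calls in either direction made up 0.15% of all tested genes, and DESeq2 also called 0 of the 10 genes. At an unadjusted p under 0.05, 1 gene was lower (Nlrp3) and 2 were higher (Il18 and Pycard) with EGCG in edgeR, against 12.2% of all tested genes in either direction, and 1 was lower and 0 were higher in DESeq2. The groups were separate, with no overlap of their libraries, for 3 of the 10 genes, of which 2 were below control (21.2% of all tested genes) and 1 above (21.5%), against 42.7% in either direction. The log2 fold changes ran from -0.26 (Il1a) to 0.33 (Il18), with a median of -0.04 beside 0.0031 over all tested genes, and 5 of the 10 lay under 0, against 49.4% of all tested genes.

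On GRCm38, both classical IL-1 genes lie on chromosome 2 and on the minus strand. Il1a (ENSMUSG00000027399) spans chr2:129299610-129309972, and Il1b (ENSMUSG00000027398) spans chr2:129364570-129371139, with a gap of 54.6 kb and 0 protein-coding genes between them. Il1f9 (ENSMUSG00000044103, chr2:24186476-24193568) and Il1rn (ENSMUSG00000026981, chr2:24336853-24351494) lie on the plus strand at the other locus of the family on chromosome 2. The gap between them is 143.3 kb, and the 3 protein-coding genes within it are the IL-1 family genes Il1f6, Il1f5 and Il1f10. Il1f6, Il1f5 and Il1f10 had at most 2 counts in any library, so that only the outer genes of that stretch were well detected in these MDSCs.

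The 250 bases before the RefSeq start (GRCm38.p6) are printed for the neighbors Il1b and Il1a, for the other strongly expressed cytokine gene Il1f9, for the antagonist gene Il1rn (the first of its 3 RefSeq starts) and for Nlrp3 (the first of its 2 starts), which had the smallest p among the 10 genes. They were searched on both strands for the letters of factors known in myeloid cells, and the capitals mark each match. The letters for NF-kB were GGGA and CC with any 4 bases between them. Those for C/EBP were TTGC and AA with any 2 bases between them. For AP-1, the search used TGANTCA. For PU.1 and other ETS factors it used GAGGAAG. The TATA box was searched as TATAAA.
Il1b, chr2:129371140-129371389, minus strand: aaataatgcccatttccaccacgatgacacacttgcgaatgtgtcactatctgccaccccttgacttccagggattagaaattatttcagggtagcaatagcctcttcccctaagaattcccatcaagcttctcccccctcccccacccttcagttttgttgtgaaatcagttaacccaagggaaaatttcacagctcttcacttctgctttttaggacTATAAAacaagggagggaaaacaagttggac
Il1a, chr2:129309973-129310222, minus strand: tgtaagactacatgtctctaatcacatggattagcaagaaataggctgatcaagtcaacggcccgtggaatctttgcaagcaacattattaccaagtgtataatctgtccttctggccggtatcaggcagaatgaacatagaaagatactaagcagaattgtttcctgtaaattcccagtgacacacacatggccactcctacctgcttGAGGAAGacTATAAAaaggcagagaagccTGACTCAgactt
Il1f9, chr2:24186226-24186475, plus strand: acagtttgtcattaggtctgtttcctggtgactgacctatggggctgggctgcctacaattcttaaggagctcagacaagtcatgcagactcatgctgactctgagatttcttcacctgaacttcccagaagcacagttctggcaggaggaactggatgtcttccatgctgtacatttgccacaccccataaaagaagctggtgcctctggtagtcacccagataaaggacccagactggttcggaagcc
Il1rn, chr2:24336610-24336859, plus strand: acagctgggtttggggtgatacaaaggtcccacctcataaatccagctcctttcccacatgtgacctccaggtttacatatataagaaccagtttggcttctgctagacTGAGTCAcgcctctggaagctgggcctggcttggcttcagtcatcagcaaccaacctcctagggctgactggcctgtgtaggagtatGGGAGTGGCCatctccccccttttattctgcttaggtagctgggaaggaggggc
Nlrp3, chr11:59541319-59541568, plus strand: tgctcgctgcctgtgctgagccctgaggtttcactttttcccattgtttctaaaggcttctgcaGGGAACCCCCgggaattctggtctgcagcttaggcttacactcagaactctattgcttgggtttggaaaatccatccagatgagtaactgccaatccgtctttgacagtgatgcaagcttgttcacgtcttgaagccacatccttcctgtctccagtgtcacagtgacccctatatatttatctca
Il1b and Il1a share TATA letters at nearly the same distance from the start, from base -31 in Il1b and from base -32 in Il1a, and such letters were found in 12.4% of 32851 promoter windows of this length. Il1a also held the PU.1/ETS letters at base -41 (10.6% of windows) and the AP-1 letters at base -12 (6.75% of windows), and none of these matches overlapped another. The NF-kB letters, found in 17.6% of windows, occurred at base -54 of Il1rn and at base -186 of Nlrp3. The window of Il1f9 held no match. Over all starts of the 10 genes, 3 genes had NF-kB letters (Il1rap, Il1rn and Nlrp3), 3 had PU.1/ETS letters (Il1a, Nlrp3 and Pycard), 3 had TATA letters (Il18, Il1a and Il1b), 2 had AP-1 letters (Il1a and Il1rn) and 1 had C/EBP letters (Pycard; 9.56% of windows). A match is a description of the letters, and a window without a match says nothing of a factor's binding.

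Levels between genes were compared per length, as CPM per kb of all annotated exons of a gene. Il1b was the highest of the 10 genes at 451.5 CPM per kb (403.4 to 493.6 over the 4 libraries), which placed it at percentile 99.3 of the tested genes. Il1f9, which encodes the cytokine IL-36 gamma, followed with 289.4 CPM per kb (274.7 to 305.4) and Il1rn with 71.19 CPM per kb (67.3 to 78.67). These first 3 genes did not overlap in any library. Nlrp3 (42.7 to 49.82 CPM per kb), Il1r2 (36.05 to 51.53 CPM per kb) and Casp1 (33.11 to 42.17 CPM per kb) formed a middle group, in which Il1r2 overlapped both others and Nlrp3 stayed above Casp1. Il1a (7.432 to 10.6 CPM per kb) and Il18 (7.065 to 9.415 CPM per kb) overlapped each other and lay below it. Pycard (4.122 to 6.284 CPM per kb) and Il1rap (2.686 to 3.498 CPM per kb) were lowest, at percentiles 55 and 44.3 of the tested genes. The exons of Il1rap (11.360 kb) and Pycard (3.800 kb) are summed over all their isoforms, which makes their levels per kb low if one short isoform prevails.

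**Figure D1:**
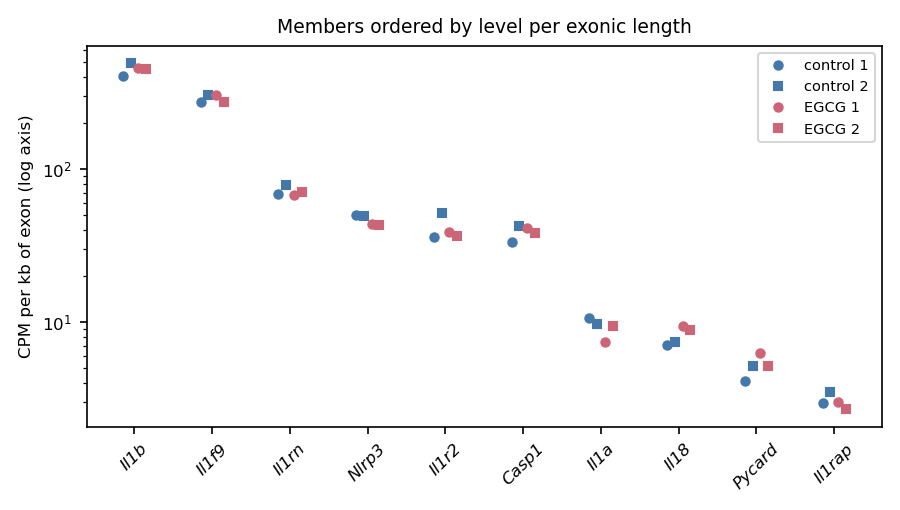
Level of each gene in CPM per kb of exon (log axis), with 1 point per library (blue, control; red, EGCG; circle, replicate 1; square, replicate 2). Il1b, Il1f9 and Il1rn stand above the other genes in every library, and the range of Il1r2 overlaps those of Nlrp3 and Casp1.

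Among the ligands, Il1b encodes IL-1 beta and was counted 14047 and 16821 times in control and 15778 and 15418 times with EGCG. This gave 769.3 and 941.3 CPM in control and 870.2 and 863.2 CPM with EGCG, so that both EGCG libraries lay between the control libraries. The mean of Il1b was 855.3 ± 121.6 CPM (SD, n = 2) in control and 866.7 ± 4.936 CPM (SD, n = 2) with EGCG. Its log2 fold change was 0.02 (standard error 0.09, 95% interval -0.18 to 0.22), and the adjusted p was 0.96 by edgeR. The interval corresponds to fold changes from 0.883 to 1.16, so that larger changes of Il1b mRNA than these lay outside it. Leaving out control replicate 1 moved this value to -0.11, and leaving out control replicate 2 moved it to 0.17.

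Il1f9 was counted 8270 and 8920 times in control and 9127 and 8086 times with EGCG. Its levels were 452.9 and 499.2 CPM in control and 503.4 and 452.7 CPM with EGCG, which is the same range in both groups. Its log2 fold change was 0.0061 (standard error 0.08, 95% interval -0.17 to 0.18; adjusted p of 0.985 by edgeR). Of the 31-base words of its transcripts, 13% also occur in transcripts of other genes, among them the predicted gene Gm15983, which had 2 counts in control replicate 1 and 0 elsewhere, and Senp2, which had 3247 to 3341 counts per library.

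Il1a, which encodes IL-1 alpha, had 382 and 341 counts in control and 266 and 333 counts with EGCG. Its levels of 20.92 and 19.08 CPM in control lay above those of 14.67 and 18.64 CPM with EGCG, and the groups did not overlap. For Il1a, the log2 fold change was -0.26 (standard error 0.13, 95% interval -0.54 to 0.01), with an unadjusted p of 0.0599 and an adjusted p of 0.434 by edgeR. The distance between the EGCG libraries was larger than that between EGCG replicate 2 and either control library: the log2 fold change was -0.10 without EGCG replicate 1 and -0.45 without EGCG replicate 2. Exons of Il1a overlap the antisense gene Gm14023 by 222 bases, and since the counting ignored strand, reads there cannot be assigned to either gene.

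Il18, which encodes the interferon-gamma inducing cytokine IL-18 (chr9:50554827-50581840, plus strand), was the least counted gene of the set. It had 133 and 137 counts in control and 176 and 163 counts with EGCG, or 7.284 and 7.667 CPM against 9.707 and 9.126 CPM. Both EGCG libraries lay above both control libraries, with a ratio of the mean CPM of 1.26. Il18 had a log2 fold change of 0.33 (standard error 0.15, 95% interval 0.0046 to 0.66), with an unadjusted p of 0.0473 that gave an adjusted p of 0.404 by edgeR. With each library left out the value was 0.29 to 0.38, and its direction could hardly turn because the groups were separate. It was 0.27 with a correction for gene length. That correction was computed because fold changes fell with exonic length over the tested genes (Spearman's rho of -0.285 over 14655 genes). The correlation is a description across genes that are no replicates.

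**Figure D2:**
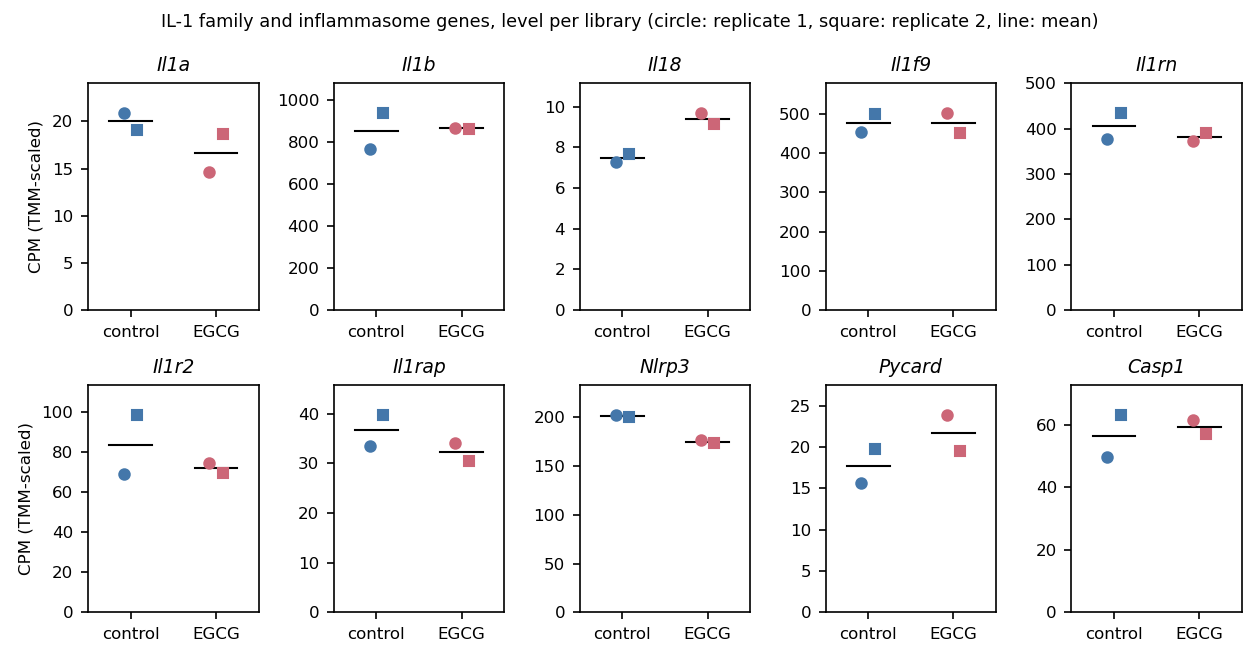
Level of the 10 genes in each library, in TMM-scaled CPM on axes that start at 0 (blue, control; red, EGCG; circle, replicate 1; square, replicate 2; black line, mean of 2 libraries). The groups are separate for Il1a, Il18 and Nlrp3 and overlap for the other 7 genes.

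Among the genes that limit or pass on the signal, Il1rn encodes the receptor antagonist IL-1Ra. It had 6885 and 7781 counts in control and 6754 and 6986 counts with EGCG, or 377.1 and 435.4 CPM against 372.5 and 391.1 CPM. The groups overlapped, and the log2 fold change of Il1rn was -0.09 (standard error 0.08, 95% interval -0.27 to 0.09; adjusted p of 0.717 by edgeR). Il1r2 (ENSMUSG00000026073, chr1:40074079-40125231), which encodes the decoy receptor that binds IL-1 without signaling, had 1256 and 1757 counts in control and 1347 and 1240 counts with EGCG. Its levels were 68.79 and 98.32 CPM in control and 74.29 and 69.42 CPM with EGCG, so that control replicate 2 alone was high. The log2 fold change of Il1r2 was -0.22 (standard error 0.13, 95% interval -0.49 to 0.05; adjusted p of 0.524 by edgeR). The choice of control library decided this value: it was -0.45 with an adjusted p of 0.014 without control replicate 1, and 0.07 with an adjusted p of 0.838 without control replicate 2. Over the other alternatives the adjusted p of Il1r2 ran from 0.326 to 1. Il1rap (chr16:26581704-26730117), the signaling accessory chain of the IL-1, IL-33 and IL-36 receptors, had 612 and 710 counts in control and 617 and 545 counts with EGCG, or 33.52 and 39.73 CPM against 34.03 and 30.51 CPM. The groups overlapped in the values of control replicate 1 and EGCG replicate 1, and the log2 fold change of Il1rap was -0.18 (standard error 0.11, 95% interval -0.41 to 0.05; adjusted p of 0.532 by edgeR). It was -0.07 with the length correction. Dropping control replicate 1 moved it to -0.30, whereas dropping the other control library left -0.05 and dropping EGCG replicate 2 left -0.10.

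Among the inflammasome genes, Nlrp3 (ENSMUSG00000032691, chr11:59541568-59566956, plus strand) encodes the sensor. It had 3691 and 3568 counts in control and 3200 and 3094 counts with EGCG, or 202.1 and 199.7 CPM against 176.5 and 173.2 CPM. The replicates of each group were close to each other and the groups were separate, with means of 200.9 ± 1.749 CPM (SD, n = 2) in control and 174.9 ± 2.307 CPM (SD, n = 2) with EGCG. The log2 fold change of Nlrp3 was -0.20 (standard error 0.07, 95% interval -0.35 to -0.05), with an unadjusted p of 0.0146 and an adjusted p of 0.289 by edgeR. Its p ranked 742 among the 14682 tested genes. The value stayed between -0.21 and -0.19 with each library left out and was -0.20 with the length correction. Since the groups were separate, its direction could hardly turn.

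Pycard (ENSMUSG00000030793, chr7:127989708-127993867), which encodes the adaptor ASC, had 286 and 352 counts in control and 433 and 349 counts with EGCG. Its levels of 15.66 and 19.7 CPM in control and 23.88 and 19.54 CPM with EGCG overlapped, since EGCG replicate 2 lay just under control replicate 2. Pycard had a log2 fold change of 0.30 (standard error 0.13, 95% interval 0.0079 to 0.59), with an unadjusted p of 0.0448 and an adjusted p of 0.4 by edgeR. It was 0.15 without control replicate 1 or without EGCG replicate 1, and 0.47 without control replicate 2. Exons of Pycard overlap the opposite gene Gm45205 by 485 bases, where unstranded reads are uncertain, and Gm45205 had 4 or 5 counts in each library. Casp1 (chr9:5298517-5307265), the protease that cleaves the precursors of IL-1 beta and IL-18, had 905 and 1128 counts in control and 1113 and 1018 counts with EGCG. These were 49.56 and 63.12 CPM against 61.38 and 56.99 CPM, with both EGCG libraries between the controls. The log2 fold change of Casp1 was 0.07 (standard error 0.11, 95% interval -0.16 to 0.30; adjusted p of 0.841 by edgeR), and it was -0.09 without control replicate 1.

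**Figure D3:**
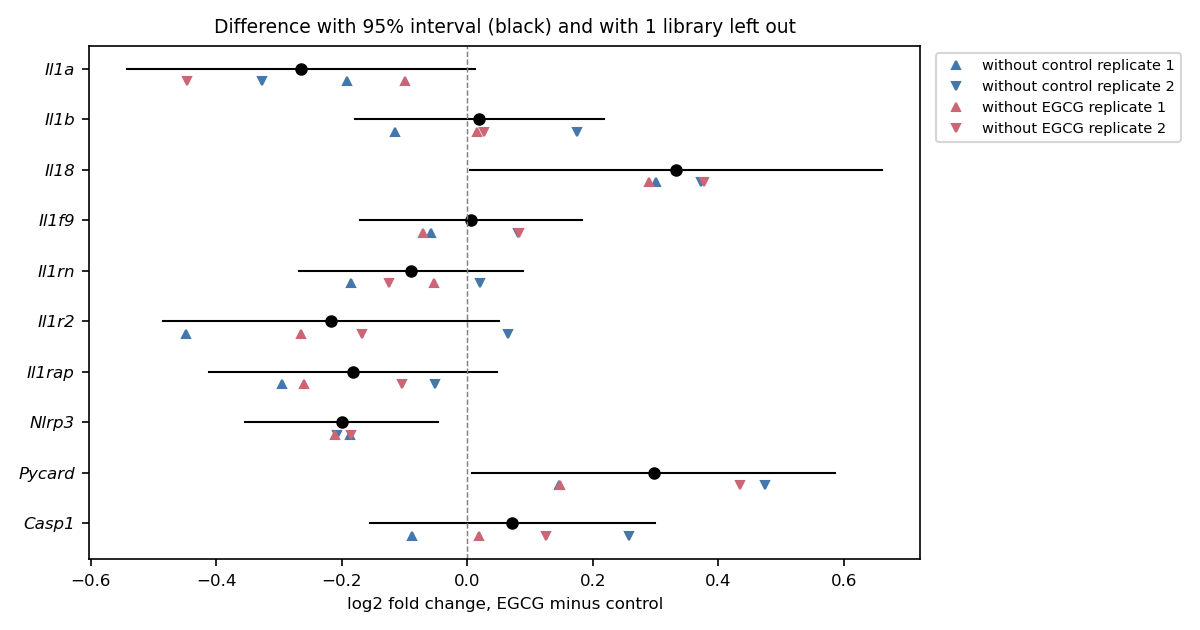
Log2 fold change of each gene, EGCG minus control (black point), with its 95% interval from the edgeR fit (black line) and the value with each library left out (triangles; blue, a control library; red, an EGCG library). The triangles of Il1a, Il18, Il1rap, Nlrp3 and Pycard stay on the same side of 0, whereas those of Il1r2 spread from -0.45 to 0.07. For Il1a, Il18 and Nlrp3, whose groups are separate, the side could hardly change.

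Ratios of counts within a library do not depend on the scaling of libraries, and they are not corrected for the length of the genes. Il1b had 2.04 and 2.162 reads per read of Il1rn in control and 2.336 and 2.207 with EGCG, a difference of 0.11 on the log2 scale. The ratio of Il1b to Il1r2 was 11.18 and 9.571 in control and 11.71 and 12.43 with EGCG, a log2 difference of 0.22. Both ratios were higher in both EGCG libraries. With a library left out, the log2 difference ran from 0.07 (without control replicate 1 or EGCG replicate 1) to 0.15 for Il1b to Il1rn, and for Il1b to Il1r2 from 0.11 when control replicate 2 was dropped to 0.33 when the other control library was. The ratio of Il1b to Il18 was 105.2 and 122.3 in control and 89.4 and 94.3 with EGCG, a log2 difference of -0.31, and here the EGCG libraries were lower. Dropping control replicate 2 brought that difference to -0.20, and dropping the other control library to -0.41. For Il1a and Il1rn the groups overlapped, with 0.05555 and 0.04389 reads of Il1a per read of Il1rn in control and 0.03946 and 0.04773 with EGCG, and the log2 difference of -0.19 came to -0.02 or -0.05 when the first replicate of control or of EGCG was dropped, and to -0.36 or -0.32 when the second was. An exact two-sided permutation test of 2 against 2 libraries cannot go below p = 0.333, and the ratios are given as values without a test.

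**Figure D4:**
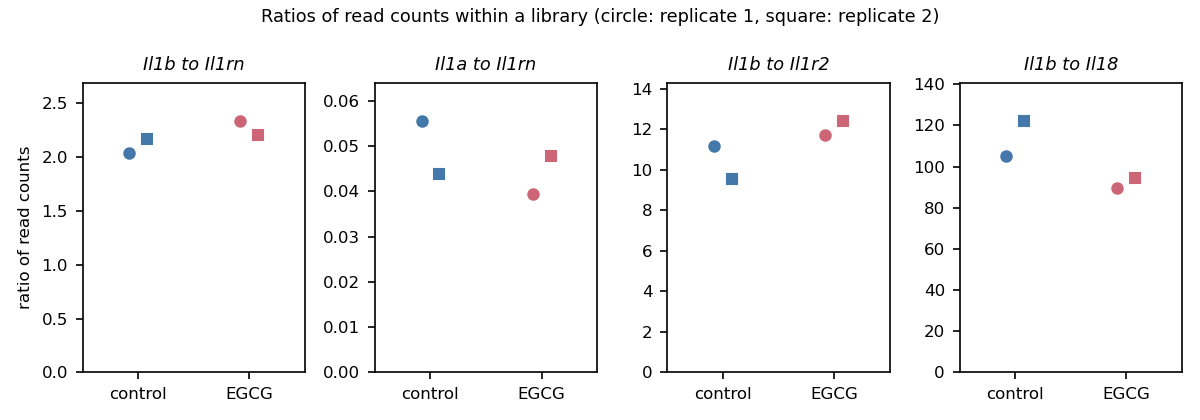
Ratio of the read counts of 2 genes within each library, on axes that start at 0 (blue, control; red, EGCG; circle, replicate 1; square, replicate 2). Il1b per Il1rn ran from 2.04 to 2.162 in control and from 2.207 to 2.336 with EGCG.

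The other genes of the pathway were listed by function in 5 lists of 66 genes, of which 58 were tested. By edgeR with adjustment over all tested genes, 0 of the 58 had an adjusted p under 0.05, 7 were lower and 0 were higher at an unadjusted p under 0.05, and DESeq2 called 0. Over all tested genes, 7.02% were lower and 5.22% were higher at an unadjusted p under 0.05. Most other ligands were near absence: Il33, which encodes the alarmin of the ST2 receptor, had 2 to 4 counts per library. Il1f8 (IL-36 beta) had 9 and 7 counts in control and 13 and 13 counts with EGCG. Il18bp, whose product binds and neutralizes IL-18, was well detected at 59.15 and 55.29 CPM in control and 57.14 and 46.8 CPM with EGCG, with a log2 fold change of -0.14 (adjusted p of 0.621 by edgeR).

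Of 6 tested receptor genes, 5 had log2 fold changes under 0 (49.4% of all tested genes), and the median was -0.17. Il1rl2, the receptor of IL-36 cytokines, had 485 and 452 counts in control and 394 and 324 counts with EGCG, and the groups did not overlap. Its log2 fold change was -0.38 (standard error 0.11, 95% interval -0.62 to -0.14), with an unadjusted p of 0.00488 and an adjusted p of 0.218 by edgeR. Il1r1, the signaling IL-1 receptor, was counted only 26 and 43 times in control and 27 and 28 times with EGCG, so that its log2 fold change of -0.32 had a standard error of 0.34. Control replicate 2 alone was high, and with that library dropped the value was 0.10. Per kb of exon, 0.2238 to 0.3782 CPM of Il1r1 stood against 36.05 to 51.53 CPM of the decoy Il1r2. Il18r1, a chain of the IL-18 receptor, was higher by 0.04 (adjusted p of 0.926 by edgeR), and its partner Il18rap had an unadjusted p of 0.047, with 278.1 and 273.3 CPM in control and 260.8 and 227 CPM with EGCG.

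The 16 genes of IL-1 receptor signaling had a median log2 fold change of -0.01, and 0 of them had an unadjusted p under 0.05. Ube2n, an ubiquitin-conjugating enzyme that acts with TRAF6, had the highest log2 fold change at 0.19 (standard error 0.09), Irak3, an inhibitory kinase of the pathway, was at 0.10 (0.08), Ikbkb, a kinase of the NF-kB inhibitor, at -0.11 (0.08) and Ube2v1, the partner of Ube2n, at -0.30 (0.33). Of 19 tested other inflammasome genes, 10 had log2 fold changes under 0 and 9 above, and the median was -0.06. The log2 fold change was -0.24 for the sensor gene Nlrp1b (standard error 0.10, adjusted p of 0.339 by edgeR) and -0.18 for Mefv, the pyrin gene (0.08, adjusted p of 0.376 by edgeR). It was -0.19 for the sensor gene Nlrc4 (0.17) and 0.18 for Txnip, a binding partner of NLRP3 (0.09), which came to -0.03 and 0.05 when control replicate 1 was dropped. Nlrp10, with at most 21 counts, was at 0.38 (0.39). Gsdmd, whose product forms the pore of pyroptosis, was at 170.8 and 179.6 CPM in control and 169.9 and 166.2 CPM with EGCG. Nlrp1a, a further sensor gene, had 26 and 15 counts in control and 12 and 8 with EGCG, with a log2 fold change of -1.02 and a standard error of 0.46, or -0.58 when control replicate 1 was dropped. Mefv, Gsdmd, Nlrp1a and, above, Il33, Il1f8 and Il18rap fell outside the rule for named genes and were named after their values were seen.

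Of 15 inflammatory genes that NF-kB is known to induce, as it does Il1b, 11 had log2 fold changes under 0, against 49.4% of all tested genes, and the median was -0.15. Cxcl3 is a neutrophil chemoattractant that the study singled out partly on these samples. It was among the changed genes that they shared with public microarrays of healthy and tumor-bearing mice. The study's qRT-PCR gave the same direction as its RNA-seq. Cxcl3 had 172 and 203 counts in control and 88 and 118 counts with EGCG. Its log2 fold change was -0.86 (standard error 0.18, adjusted p of 0.0826 by edgeR), which passed the threshold with library size only, with edgeR's robust fit, and without control replicate 1 or EGCG replicate 2. Ptgs2, which encodes the prostaglandin synthase COX-2, had 16.27 and 22.38 CPM in control and 15.22 and 17.24 CPM with EGCG, and the groups overlapped. Its log2 fold change of -0.25 (standard error 0.15) came to -0.0010 when control replicate 2 was dropped. Clec4e, a C-type lectin receptor, was at 0.10 (0.08) and Sod2, the mitochondrial superoxide dismutase, at 0.10 (0.08). Tnf was at 103.6 and 92.56 CPM in control and 92.1 and 84.09 CPM with EGCG, named here after its values were seen, with a log2 fold change of -0.15 (adjusted p of 0.496 by edgeR).

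**Figure D5:**
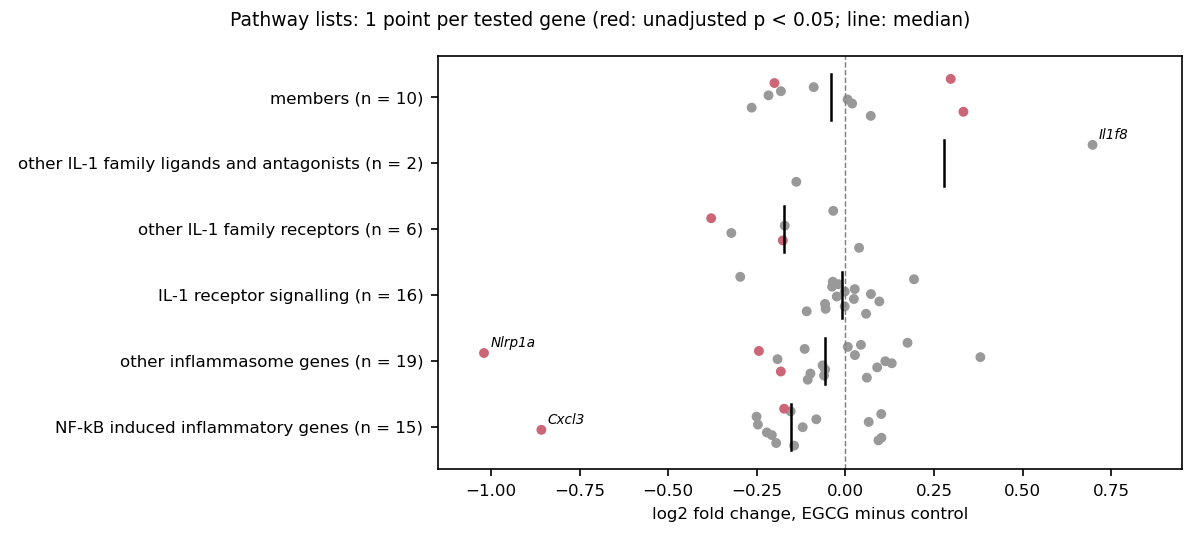
Log2 fold change of each tested gene of the IL-1 family and inflammasome (top row, members) and of the 5 pathway lists, EGCG minus control (1 point per gene; red, unadjusted p under 0.05; black line, median of the list). Most points lie within 0.4 of 0, and Nlrp1a, Cxcl3 and Il1f8 lie farther out.

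Over the 4 libraries, the log2 CPM of Il1b was most like that of Casp1 within the set (Pearson correlation of 0.953) and least like that of Il1a (-0.363). Among 9273 other tested genes with at least 100 counts in every library, Nupl1, Sdf4, Dhrs1, 4921524J17Rik and Ifitm1 had the profiles most like that of Il1b, with correlations of at least 0.99898. With 4 points that share their libraries, many genes reach such values, and they are given as a description only. Nlrp3 and Il18 had opposite profiles (-0.957), and Il1r2 and Il1rap had like profiles (0.925), with control replicate 2 highest in both.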

How the data were processed

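RNA was sequenced from Gr-1-selected spleen MDSCs cultured with or without EGCG (2 libraries each). The authors used STAR 2.6.0c with GRCm38 and featureCounts 1.6.2 with Ensembl genes, ignored the strand in counting, and deposited raw whole-number counts per gene. The file held 0 columns of other samples. Genes passing edgeR's filterByExpr (minimum count of 10) were tested in edgeR 4.0.16 (TMM, quasi-likelihood test in legacy form) and adjusted over 14682 genes by Benjamini-Hochberg, with a threshold of 0.05. Standard errors are the log2 fold change divided by the square root of F. The test was also run on simulated counts with known changes, as a check of the code only. Those counts did not model genes or libraries with unusual spread. Exons, positions and 31-base words came from GENCODE M21 (GRCm38), which held lengths for 53274 of 53465 genes. Promoters came from RefSeq (GRCm38.p6) and matched 10 of 10 genes. The members, lists and motifs were chosen with earlier results of these data known. In each pathway list, the rule for naming genes took any called gene and up to 2 genes per direction with the largest log2 fold change among those with at least 10 counts in every library. Alternatives were other filters, scaling methods and fits, DESeq2 1.42.0, a length correction (loess, span of 0.4), a replicate block and leaving out each library. R 4.3.3 and matplotlib 3.10.9 were also used.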

Additional observations from a re-analysis of the deposited data

How the results depend on the processing

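Of the 100 log2 fold changes of the 10 genes under the 10 alternatives of filter, scaling, fit, length correction and block, 96 kept their direction and none passed the threshold. The other 4 were Il1b (-0.0137 with library size only and -0.0175 with the length correction) and Il1f9 (-0.0281 and -0.0387), where the cause was not tested. Of 40 values with 1 library left out, 33 kept direction and side. Without control replicate 1 the direction turned for Casp1 (-0.0880), Il1b (-0.1145) and Il1f9 (-0.0575), and Il1r2 became the 1 gene called lower, so that this count ran from 0 to 1. Without control replicate 2 it turned for Il1r2 (0.0655) and Il1rn (0.0202), and the median of the 10 genes became 0.0730, against -0.1497 without control replicate 1. Without EGCG replicate 1 it turned for Il1f9 (-0.0700). Over the 4 libraries left out, the log2 fold change thus ran from -0.0880 to 0.2585 for Casp1, from -0.1145 to 0.1743 for Il1b, from -0.0700 to 0.0818 for Il1f9, from -0.4475 to 0.0655 for Il1r2 and from -0.1850 to 0.0202 for Il1rn. Among the NF-kB induced genes, Cxcl3 was the 1 gene called lower with library size only and with the robust fit. With a library left out, 0 to 2 genes of that list were called lower, of which Cxcl3 was called without control replicate 1 or EGCG replicate 2, and Cxcl2 without control replicate 1. Leaving out libraries was also tried, as a choice made after seeing the data, for the pathway genes named with a fold change. The direction turned for Il1r1, which ran from -0.6480 to 0.1038 (control replicate 2 dropped), and for Il18r1, from -0.0569 (EGCG replicate 1 dropped) to 0.1310. Il18bp came to -0.0009 with EGCG replicate 2 dropped, Ptgs2 to -0.0010 with control replicate 2 dropped, and Nlrc4 to -0.0288, Sod2 to 0.0230, Clec4e to 0.0377, Irak3 to 0.0455, Ikbkb to -0.0506, Tnf to -0.0664 and Nlrp1a to -0.5849 with control replicate 1 dropped. Mefv came to -0.0912 with control replicate 2 dropped, and Il18rap to -0.0789 with EGCG replicate 2 dropped.

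Over all tested genes, 20 were called lower and 2 higher. No filter on low counts gave 0 and 0, a CPM of at least 1 in 2 libraries 20 and 1, library size only 135 and 16, upper-quartile scaling 9 and 2, edgeR 4's form of the fit 25 and 6, the robust fit 49 and 14, DESeq2 38 and 12, and the length correction 6 and 2. With a library left out, 72 to 235 were called lower and 5 to 119 higher. The deviations of same-numbered libraries had a correlation of 0.0336 over the tested genes. Whether same-numbered libraries came from the same mouse or sort was not tested. With the replicate block, 24 genes were called lower and 6 higher, 0 of the 10 genes were called, and Nlrp3 had a log2 fold change of -0.2004. A lone library left in a group was assumed to vary like the other group. With 133 to 433 counts per library, Il18 and Pycard had the widest intervals of the set.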
